A study of Rattus norvegicus with 15 samples.

Results

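The genes of the proteasome were examined in rat kidneys 4 days after allogeneic (aTX) or syngeneic (sTX) kidney transplantation and in native control kidneys (ctr). Members were all genes whose single symbol in the array's probe annotation begins with Psma, Psmb, Psmc, Psmd, Psme, Psmf or Psmg. This gave 46 genes of the 14217 genes with a single symbol, represented by 60 probe sets. For each gene the probe set with the highest mean log2 signal over all 15 arrays was used. Of the 46 genes, 44 encode subunits, activators, an inhibitor or assembly chaperones, and Psmc3ip and Psme3ip1 only share the letters of the name. Psmb6 and Psme3 were not members because their probe sets carry several gene symbols, and they were not analysed here.

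The proteasome is the protease that degrades ubiquitin-tagged proteins. Its barrel-shaped 20S core is built of outer alpha rings, which gate the entry, and inner beta rings, which hold the catalytic sites, and the 19S cap unfolds substrates with its ATPase ring and feeds them into the core. In cells exposed to interferon gamma the inducible subunits Psmb8, Psmb9 and Psmb10 take the places of Psmb5, Psmb6 and Psmb7 in newly made cores, which are then called immunoproteasomes, and the 11S ring of Psme1 and Psme2 can replace the 19S cap. Peptides cut by these particles are carried by the Tap1/Tap2 transporter to MHC class I molecules, which display them to CD8+ T cells.

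Each group held 5 kidneys of male rats aged 10 to 12 weeks, with 1 Affymetrix Rat Genome 230 2.0 array per kidney. By the series design, Lewis-Brown-Norway (LBN) kidneys were placed in Lewis (LEW) recipients for aTX and in LBN recipients for sTX, recipients had lost both own kidneys, and the donors' other kidneys served as ctr. No immunosuppression was used in the study. Donors therefore may be shared between grafts and controls, in pairs that the labels do not give, and the labels differ among themselves: some name Lewis donors, and the treatment field of sTX kidneys 4 and 5 calls them allogeneic, although their titles place them in sTX. They were kept in sTX, and counts without them are given below. The instrument records give a hybridization date and start time per array, and arrays that started within minutes of one another were grouped. This gave 2 runs, called wash and stain runs here. The name is a label chosen for these groups of start times, which the records give as hybridization times. Run 1 held all ctr arrays and aTX 2, 3 and 4, and run 2 held all sTX arrays and aTX 1 and 5, so that sTX and ctr shared no run. The records also number a station. In run 1, aTX 2, 3 and 4 and ctr 5 had station 2, and ctr 1 to 4 had station 1. In run 2, aTX 1 and 5 and sTX 1 and 2 had station 1, and sTX 3 to 5 had station 2. The part of the station in the results was not tested. Signal at the 3′ end of Gapdh over that at its 5′ end, which rises as RNA degrades, was 1.04 ± 0.025 in aTX, 1.10 ± 0.024 in sTX and 1.17 ± 0.047 in ctr (SD, n = 5 each). The same ratio for actin was 1.23 ± 0.058 in aTX, 1.51 ± 0.060 in sTX and 1.74 ± 0.168 in ctr, and no aTX array (highest 1.29) reached the sTX arrays (lowest 1.45) or the ctr arrays (lowest 1.54). The part of this difference in the results was not tested.

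Most proteasome genes had higher signals in aTX, none was called lower, and the size of the change differed widely between subunit classes. A gene was called at an adjusted p under 0.05 (limma over 31042 probe sets, Benjamini-Hochberg). In aTX against ctr, 35 of the 46 genes were called higher and 0 lower, beside 20.2% of all probe sets higher and 22.2% lower. In aTX against sTX, 31 genes were higher and 0 lower, beside 13.9% and 22.1% of all probe sets. In sTX against ctr, 16 genes were higher and 0 lower, beside 11.4% and 6.32% of all probe sets. Proteasome genes were mostly bright, and the share called higher was larger among bright probe sets: for those averaging 100 or more it was 34.7% for aTX over ctr, 28.3% for aTX over sTX and 19.1% for sTX over ctr. Over all named genes, each with its brightest probe set, it was 27.7%, 19.8% and 16.1% in that order of comparisons. The median log2 difference over the 46 genes was 0.44 for aTX over ctr, 0.33 for aTX over sTX and 0.11 for sTX over ctr, where the medians over all probe sets were −0.07, −0.18 and 0.09. All 5 aTX arrays were above all 5 ctr arrays for 31 genes (16.4% of all probe sets), and above all 5 sTX arrays for 28 genes (12.1%). All 5 sTX arrays were above all 5 ctr arrays for 11 genes (8.44%).

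The same groups differed in their marker genes of cell types. Of 16 leukocyte markers, 14 were called higher in aTX than in ctr and 10 higher in sTX than in ctr, beside 27.7% and 16.1% of all named genes. Their summed signal ranged between 8315 and 10853 in aTX, 1228 and 1900 in sTX and 776 and 981 in ctr, and the markers with the lowest ctr means were Itgam (2.66), Ms4a1 (8.44) and Cd8a (9.1). All 10 kidney tubule markers were lower in aTX than in ctr, beside 22.2% of all probe sets. Their summed signal was 8328 to 10824 in aTX, 17700 to 21181 in sTX and 19832 to 22897 in ctr. The 2 podocyte and 3 endothelium markers measured were also all called lower in aTX than in ctr. The part of these shifts in the proteasome values was not tested, and in whole-tissue RNA more cells of a type and more RNA per cell cannot be told apart.

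**Figure D1:**
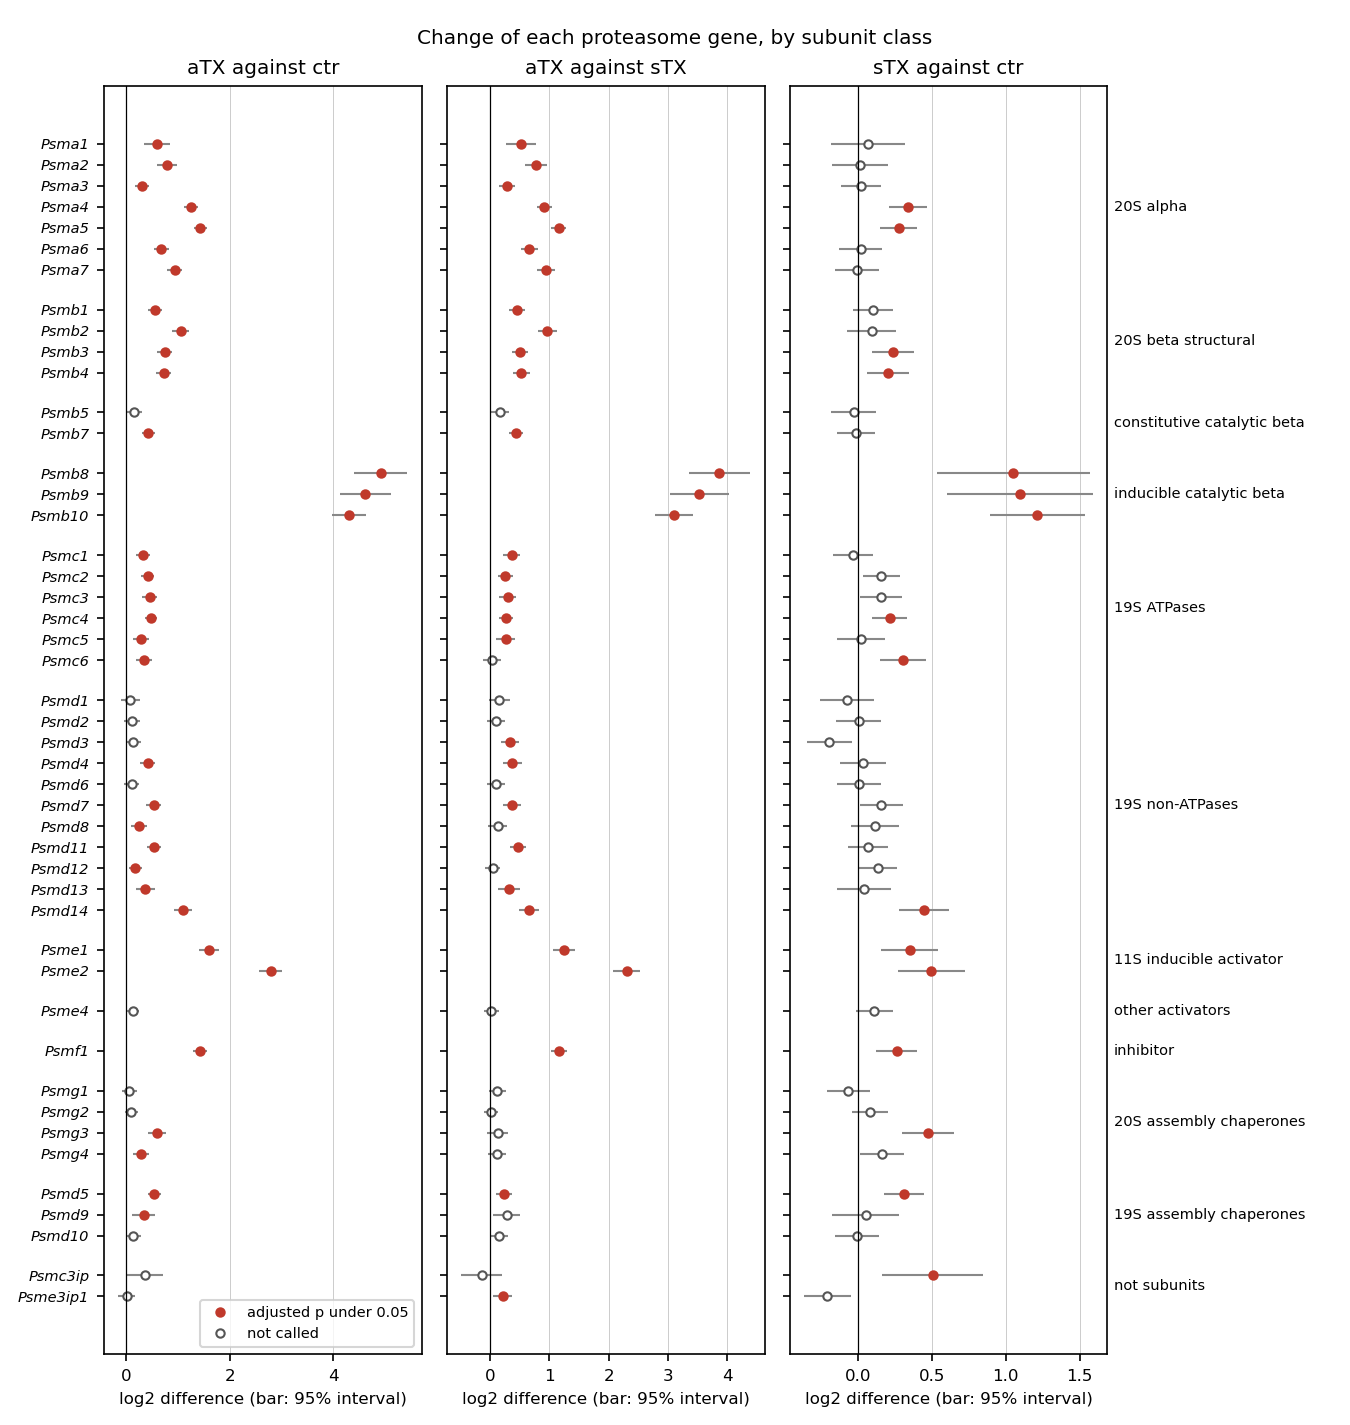
Log2 difference of each of the 46 proteasome genes (rows, grouped by class) in aTX against ctr, aTX against sTX and sTX against ctr (columns, each with its own axis), with 95% intervals from limma and filled points for adjusted p under 0.05. The 3 inducible catalytic subunits lie at 4.31 to 4.92 in aTX against ctr, while Psmb5 lies at 0.14.

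The inducible catalytic subunits were the members with the largest differences in all 3 comparisons. Psmb8, which carries the chymotrypsin-like activity of the immunoproteasome, had signals of 2403, 2341, 2306, 2175 and 2246 in aTX, 306, 149, 118, 133 and 135 in sTX, and 68.0, 62.3, 164, 57.7 and 62.5 in ctr. The aTX arrays were far above the others, while ctr 3 lay above 4 of the 5 sTX arrays. Psmb8 was 30.3-fold higher in aTX than in ctr (log2 4.92 ± 0.25 SE, adjusted p = 2.542e-12) and 14.6-fold higher in aTX than in sTX (3.87 ± 0.25, adjusted p = 1.951e-10).

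Psmb9, the inducible counterpart of Psmb6, had signals of 3397, 3972, 3699, 3490 and 2926 in aTX, 589, 312, 251, 263 and 208 in sTX, and 113, 124, 271, 119 and 125 in ctr. It was 24.6-fold higher in aTX than in ctr (log2 4.62 ± 0.24 SE, adjusted p = 3.343e-12) and 11.5-fold higher in aTX than in sTX. Again sTX and ctr overlapped through ctr 3. Psmb10, which replaces Psmb7 at the trypsin-like site, had signals of 1832, 1722, 1641, 1658 and 1533 in aTX, 291, 239, 174, 148 and 162 in sTX, and 88.4, 75.0, 109, 66.7 and 89.0 in ctr. Here the 3 groups did not overlap. Psmb10 was 19.8-fold higher in aTX than in ctr (log2 4.31 ± 0.15 SE, adjusted p = 2.814e-14) and 8.54-fold higher in aTX than in sTX.

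In sTX the inducible subunits were also above ctr. Psmb10 was 2.32-fold higher (log2 1.22 ± 0.15 SE, adjusted p = 1.127e-05), Psmb9 2.14-fold (1.10 ± 0.24, adjusted p = 0.0025) and Psmb8 2.07-fold (1.05 ± 0.25, adjusted p = 0.0048). The highest arrays of Psmb8 and Psmb9 were sTX 1 within sTX and ctr 3 within ctr. The same arrays were the highest of their groups for Irf1, an interferon-induced transcription factor, with 420 against 156 to 231 in the other sTX arrays and 177 against 65.6 to 89.6 in the other ctr arrays. Both arrays were also the highest of their groups for Ifng, Tap1 and Tap2. Neither was the highest for Ifngr1, Jak1, Tapbp, Erap1, B2m or Nlrc5, and only sTX 1 was for Ifngr2 and Jak2. Both arrays also had the highest leukocyte sums of their groups, 1900 and 981, whose part in the Psmb8 and Psmb9 values was not tested. The Gapdh ratio of ctr 3 was the highest of all arrays (1.246), and its part was not tested either. Without sTX 1 and ctr 3, a choice made after seeing the data, Psmb8 was 2.13-fold higher, Psmb9 2.13-fold and Psmb10 2.24-fold higher in sTX than in ctr, and the counts of genes called higher were 36 for aTX over ctr, 31 for aTX over sTX and 15 for sTX over ctr.

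**Figure D2:**
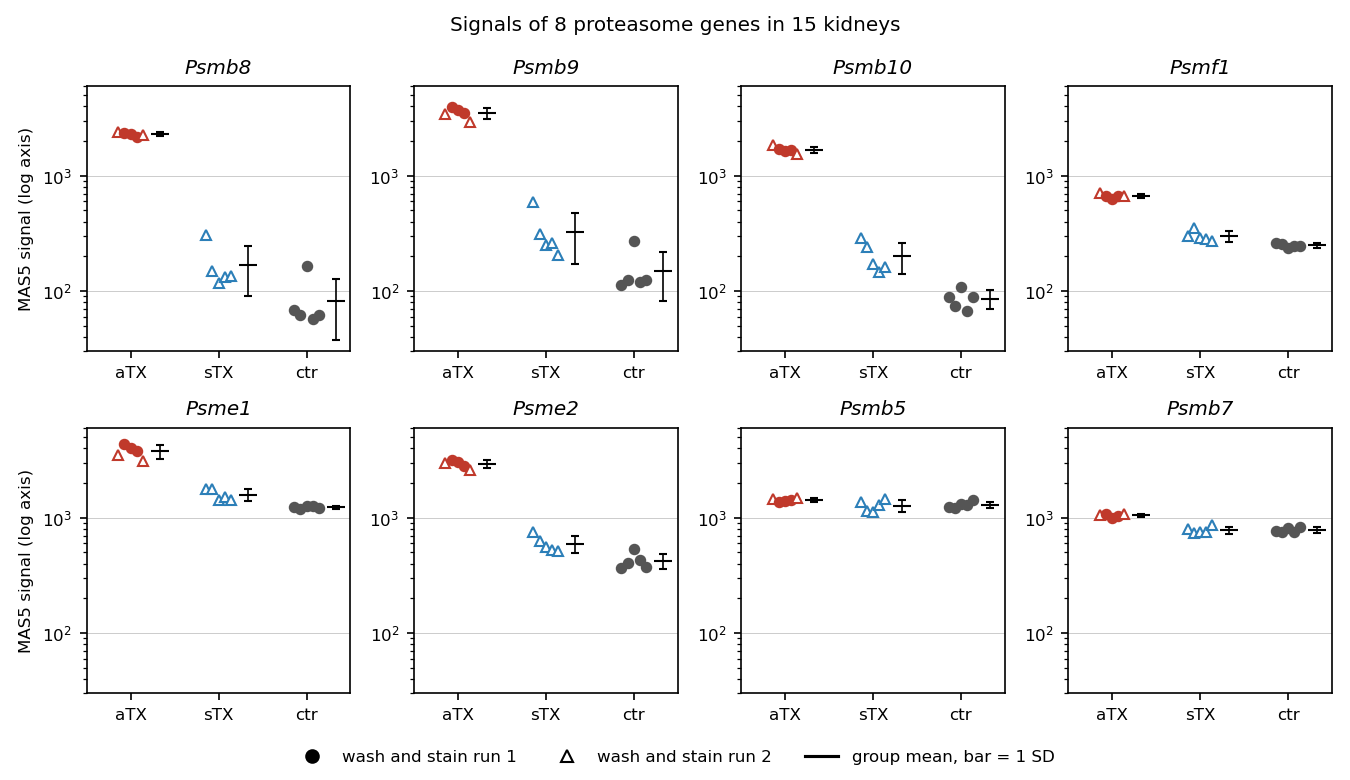
MAS5 signal (log axis) of 8 proteasome genes in each of the 15 kidneys, by group, with filled circles for wash and stain run 1 and open triangles for run 2, and the mean with 1 SD beside each group. Psmb8, Psmb9, Psmb10 and Psme2 are far higher in aTX, and the arrays of Psmb5 overlap among all groups; levels of different genes come from different probe sets and cannot be compared.

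Both subunits of the 11S activator and the inhibitor Psmf1 were also higher in aTX. Psme2 (PA28 beta) had signals of 2963, 3174, 3041, 2802 and 2607 in aTX, 759, 632, 558, 522 and 518 in sTX, and 370, 407, 532, 431 and 373 in ctr. The aTX arrays stood clear of both other groups, and sTX and ctr overlapped through ctr 3. Psme2 was 6.95-fold higher in aTX than in ctr (log2 2.80 ± 0.11 SE), 4.92-fold higher in aTX than in sTX and 1.41-fold higher in sTX than in ctr. Its partner Psme1 (PA28 alpha) had signals of 3486, 4377, 4034, 3824 and 3082 in aTX, 1777, 1775, 1416, 1511 and 1423 in sTX, and 1242, 1183, 1254, 1259 and 1226 in ctr. The groups did not overlap, and Psme1 was 3.03-fold higher in aTX than in ctr (1.60 ± 0.09 SE), 2.38-fold higher in aTX than in sTX and 1.28-fold higher in sTX than in ctr. These values rest on the brighter of 2 Psme1 probe sets, since the other averaged 11.1 over all arrays and was called in no comparison.

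Psmf1 (PI31), which inhibits the isolated 20S core in the test tube, averaged 668 ± 24.3 in aTX, 300 ± 30.4 in sTX and 249 ± 10.8 in ctr (SD, n = 5 each). All aTX arrays were above 634 and all others below 351. It was 2.69-fold higher in aTX than in ctr (log2 1.43 ± 0.07 SE), 2.24-fold higher in aTX than in sTX and 1.20-fold higher in sTX than in ctr. Psme4 (PA200), an activator that caps the core without ATP, was not called, with means of 325 ± 9.34 in aTX, 322 ± 12.6 in sTX and 298 ± 21.2 in ctr. Its log2 difference in aTX against ctr was 0.13 (95% interval 0.00 to 0.25, adjusted p = 0.10). Another Psme4 probe set of similar mean signal was called higher there (0.22, adjusted p = 0.047).

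The sequence before the genes is shown for the 5 members with the best known response to interferon gamma and for Psmb5. The limma fit of all 15 arrays as deposited called Psmb5 in no comparison. The windows are from RefSeq (assembly GRCr8) and run 250 bases before to 50 bases after the annotated start, given 5′ to 3′ on the gene's strand. Capitals mark the letters GAAA, any 2 bases and GAAA again, on either strand, which form the core of the interferon-stimulated response element (ISRE). The windows are chr20:4656982-4657281 (minus strand) for Psmb8, chr20:4668750-4669049 (plus) for Psmb9, chr19:50743243-50743542 (minus) for Psmb10, chr15:33038721-33039020 (plus) for Psme1, chr15:33052702-33053001 (minus) for Psme2 and chr15:32047330-32047629 (minus) for Psmb5.
Psmb8: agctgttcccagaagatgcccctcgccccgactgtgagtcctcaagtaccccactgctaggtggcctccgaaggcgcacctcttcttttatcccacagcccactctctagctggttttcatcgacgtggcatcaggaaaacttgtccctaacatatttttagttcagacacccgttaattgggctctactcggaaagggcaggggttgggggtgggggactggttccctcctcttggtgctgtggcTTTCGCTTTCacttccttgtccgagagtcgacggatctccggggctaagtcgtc
Psmb9: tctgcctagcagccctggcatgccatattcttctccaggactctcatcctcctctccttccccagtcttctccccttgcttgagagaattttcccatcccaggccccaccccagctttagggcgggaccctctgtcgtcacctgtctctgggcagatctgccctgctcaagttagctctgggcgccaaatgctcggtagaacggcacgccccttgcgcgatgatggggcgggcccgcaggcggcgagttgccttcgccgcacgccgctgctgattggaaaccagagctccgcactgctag
Psmb10: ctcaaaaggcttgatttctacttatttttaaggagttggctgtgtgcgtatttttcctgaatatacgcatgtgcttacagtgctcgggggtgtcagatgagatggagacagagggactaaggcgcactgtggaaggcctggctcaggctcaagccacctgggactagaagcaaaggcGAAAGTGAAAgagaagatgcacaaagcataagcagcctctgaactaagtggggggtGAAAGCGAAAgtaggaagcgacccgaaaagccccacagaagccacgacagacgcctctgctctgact
Psme1: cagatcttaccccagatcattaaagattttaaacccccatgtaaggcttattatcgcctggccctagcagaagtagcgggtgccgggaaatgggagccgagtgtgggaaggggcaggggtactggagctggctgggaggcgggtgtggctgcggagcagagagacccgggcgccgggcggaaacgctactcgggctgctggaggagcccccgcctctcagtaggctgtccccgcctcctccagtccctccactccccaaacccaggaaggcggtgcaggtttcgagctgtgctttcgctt
Psme2: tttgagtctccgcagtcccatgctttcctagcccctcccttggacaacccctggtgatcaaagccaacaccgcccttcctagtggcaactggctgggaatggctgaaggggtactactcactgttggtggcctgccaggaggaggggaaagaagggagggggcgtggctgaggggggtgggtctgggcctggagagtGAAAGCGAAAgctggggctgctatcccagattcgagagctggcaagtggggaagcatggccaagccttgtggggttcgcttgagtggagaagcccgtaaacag
Psmb5: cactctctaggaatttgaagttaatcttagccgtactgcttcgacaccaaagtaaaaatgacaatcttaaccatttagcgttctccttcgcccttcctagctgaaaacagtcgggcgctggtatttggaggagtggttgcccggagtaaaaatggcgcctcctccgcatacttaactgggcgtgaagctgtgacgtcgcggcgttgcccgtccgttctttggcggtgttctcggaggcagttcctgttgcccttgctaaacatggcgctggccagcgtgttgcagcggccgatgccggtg

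Of the 46 genes, 42 had such a window, matched by gene ID. The ISRE core was present in 7 of these (16.7%), against 1034 of all 27457 windows of this length (3.77%). The members with it were Psma4, Psmb3, Psmb8, Psmb10, Psmd7, Psme2 and Psmg4. Their log2 differences in aTX against ctr ranged between 0.28 (Psmg4) and 4.92 (Psmb8), so the match was not limited to members with large changes. Psmb8 (position −4 from the start), Psmb10 (−17, with another copy of the core at −73) and Psme2 (−53) held the same 10 letters, GAAAGCGAAA, read in the direction of the motif. These letters, searched for after the sites had been seen, were in 20 of the 27457 windows (0.073%), and in 3 of the 42 members. The letters GAAAGTGAAA were as common among members, in Psmb3 (−143), Psmb10 (the copy at −73) and Psmg4 (7 after the start). Psmb3 and Psmg4 had log2 differences of 0.75 and 0.28 in aTX against ctr. The share of all windows with GAAAGTGAAA was not taken, so the 0.073% does not set the first letters apart. Psmb9 and Psme1 held no ISRE core within these windows, which says nothing of sequence outside them. The Psme1 window ends in tttcgctt, the letters with which the marked Psmb8 site begins, and the bases that follow were not searched. The gamma-activated site core TTCNNNGAA was in 4 members (9.52%) and 8.68% of all windows, and the antioxidant response core TGACNNNGC, searched on both strands as well, was in 7 members (16.7%) and 12.2% of all windows. In the assembly's gene order Psmb8 lies between Tap2 and Tap1, and Psmb9 between Tap1 and RT1-DMb, on chromosome 20, while Psme1 and Psme2 on chromosome 15 are separated only by Emc9.

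The constitutive 20S core changed less than the inducible subunits, and unevenly. All 7 alpha subunits were called higher in aTX than in ctr, with a median log2 difference of 0.78, and all 4 structural beta subunits, with a median of 0.74. Psma5 changed the most, with signals of 1555, 1390, 1404, 1435 and 1440 in aTX, 663, 672, 670, 610 and 631 in sTX, and 489, 537, 556, 526 and 573 in ctr. It separated all 3 groups and was 2.70-fold higher in aTX than in ctr (log2 1.43 ± 0.06 SE) and 1.21-fold higher in sTX than in ctr. Psma3 changed the least among the alpha subunits, with means of 234 ± 9.77 in aTX, 193 ± 10.3 in sTX and 190 ± 12.8 in ctr. Its aTX arrays were still above all others, at 1.24-fold of ctr. Among the structural beta subunits Psmb2 had the largest difference (2.08-fold, 1831 ± 81.9 in aTX, 942 ± 73.3 in sTX and 885 ± 105 in ctr) and Psmb1 the smallest (1.47-fold). In sTX against ctr, 2 of the 7 alpha subunits and 2 of the 4 structural beta subunits were called higher, beside 16.1% of all named genes. All were higher by less than 1.27-fold (Psma4, at 1.266-fold, was the largest). None of these calls was kept when each array was centred on its median, and only that of Psmb3 was kept with the wash run as a block.

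The constitutive catalytic subunits, whose places the inducible subunits take, were among the members of the core with the smallest differences. Psmb5, which carries the chymotrypsin-like site of the standard proteasome, had signals of 1441, 1379, 1385, 1435 and 1494 in aTX, 1362, 1152, 1117, 1280 and 1459 in sTX, and 1237, 1212, 1310, 1294 and 1417 in ctr. The groups overlapped. Its log2 difference was 0.14 in aTX against ctr (95% interval −0.01 to 0.30, adjusted p = 0.14), 0.17 in aTX against sTX (0.02 to 0.33, adjusted p = 0.082) and −0.03 in sTX against ctr (−0.18 to 0.13, adjusted p = 0.86). Other settings did call it: quantile normalization in aTX against ctr (log2 0.21, adjusted p = 0.025), and centring of each array on its median in aTX against sTX (0.29, adjusted p = 0.0031) and in sTX against ctr (−0.22, adjusted p = 0.032). On the scale as deposited, limma called it in aTX against sTX without sTX 5 (0.22, adjusted p = 0.022) and without sTX 4 and 5 (0.24, adjusted p = 0.027). It did so there also with only probe sets averaging 50 or more (adjusted p = 0.044). Psmb7, the trypsin-like subunit, had signals of 1050, 1084, 1004, 1038 and 1083 in aTX, 792, 736, 755, 747 and 865 in sTX, and 765, 755, 819, 749 and 837 in ctr. The aTX arrays were above all others, and Psmb7 was 1.34-fold higher in aTX than in ctr (adjusted p = 6.733e-06) and 1.35-fold higher in aTX than in sTX, with no call in sTX against ctr (log2 −0.01, −0.14 to 0.11).

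To ask whether an inducible subunit and the constitutive subunit it replaces changed unequally, their log2 signals were subtracted within each array, which cancels any scaling of the array. Since the signals come from different probe sets, only the change of this difference between groups is interpretable. Psmb10 minus Psmb7 averaged 0.67 ± 0.11 in aTX, −1.99 ± 0.43 in sTX and −3.22 ± 0.22 in ctr (SD, n = 5 each). The 3 groups did not overlap. The change was 3.89 for aTX over ctr, 2.66 for aTX over sTX and 1.23 for sTX over ctr, each with p = 0.007937, the smallest that the exact two-sided permutation test allows with 5 arrays against 5 (adjusted p = 0.009524 over 6 tests). Psmb8 minus Psmb5 averaged 0.68 ± 0.08 in aTX, −3.01 ± 0.51 in sTX and −4.09 ± 0.62 in ctr. The changes were 4.78 in aTX against ctr and 3.70 in aTX against sTX, with the same p, and 1.08 in sTX against ctr, where the arrays overlapped (exact permutation p = 0.03175, adjusted p = 0.03175). That last call was lost when ctr 1, 2, 4 or 5 was left out (adjusted p = 0.05556 each), and it was kept without ctr 3 (1.35, exact permutation adjusted p = 0.007937) and without both sTX 1 and ctr 3 (1.14, adjusted p = 0.02857).

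**Figure D3:**
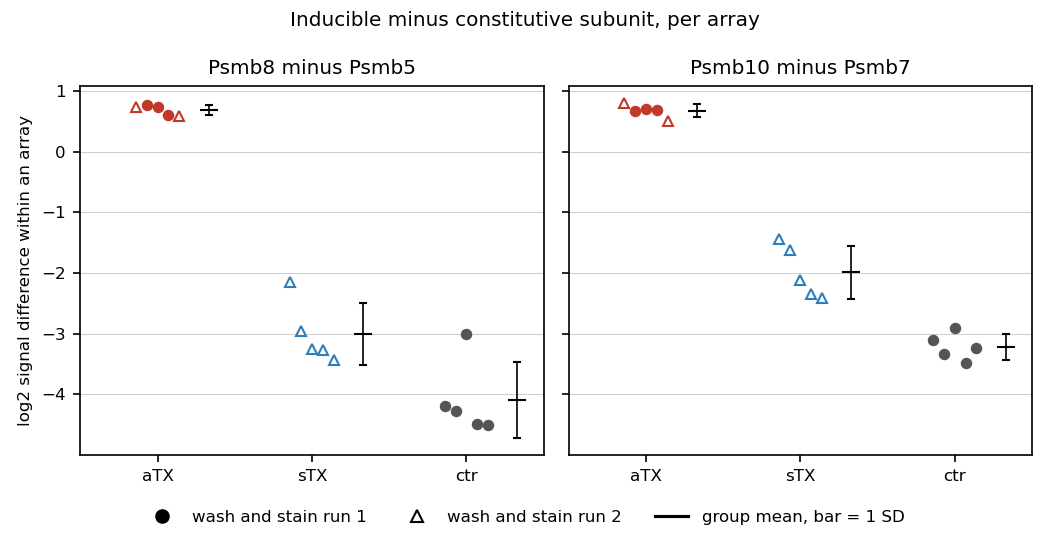
Difference of log2 signals within each array, Psmb8 minus Psmb5 and Psmb10 minus Psmb7, by group, with the mean and 1 SD beside each group and symbols for the wash and stain runs as in the plot of signals. All aTX arrays lie between 0.50 and 0.80, all sTX and ctr arrays below −1.4.

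The 19S cap showed smaller differences, and its ATPases were more uniform than its other subunits. All 6 ATPases, the ring that unfolds substrates and opens the gate of the core, were called higher in aTX than in ctr, between 1.22-fold (Psmc5) and 1.39-fold (Psmc4). Psmc4 averaged 780 ± 25.4 in aTX, 650 ± 31.6 in sTX and 560 ± 29.9 in ctr, and its 3 groups did not overlap. Psmc5 averaged 444 ± 52.1 in aTX, 369 ± 20.8 in sTX and 364 ± 24.3 in ctr. Its call in aTX against ctr was lost when the wash run entered the fit as a block.

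Of the 11 non-ATPase subunits, 7 were higher in aTX than in ctr, and Psmd1, Psmd2, Psmd3 and Psmd6 were not called. The largest difference was that of Psmd14 (Rpn11), the deubiquitinase that removes the ubiquitin chain before degradation. It had signals of 694, 594, 649, 700 and 608 in aTX, 446, 469, 434, 342 and 381 in sTX, and 289, 328, 289, 312 and 293 in ctr. All 3 groups were separate, and Psmd14 was 2.15-fold higher in aTX than in ctr (log2 1.10 ± 0.08 SE, adjusted p = 7.428e-10), 1.57-fold higher in aTX than in sTX and 1.37-fold higher in sTX than in ctr (adjusted p = 0.00055). Psmd1 (Rpn2), the scaffold of the cap's base, averaged 242 ± 28.8 in aTX, 217 ± 20.5 in sTX and 228 ± 17.6 in ctr, with a log2 difference of 0.08 in aTX against ctr (95% interval −0.10 to 0.26). In sTX against ctr, 3 of the 17 genes of the cap were called higher, Psmc4, Psmc6 and Psmd14, a share close to the 16.1% of all named genes. Psmd11 was measured by 2 probe sets of similar mean signal that disagreed, since the probe set used was 1.45-fold higher in aTX than in ctr while the other showed a log2 difference of −0.01.

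Assembly chaperones, which build the particle and leave it, were mixed. Of the 20S chaperones Psmg3 and Psmg4 were called higher in aTX than in ctr and Psmg1 and Psmg2 were not. Psmg3 averaged 143 ± 5.72 in aTX, 132 ± 14.4 in sTX and 94.4 ± 7.76 in ctr. Both graft groups were above all ctr arrays, at 1.52-fold in aTX and 1.39-fold in sTX, and aTX was not called different from sTX (log2 0.13, 95% interval −0.05 to 0.30). Psmg1 averaged 381 ± 21.4 in aTX, 351 ± 19.7 in sTX and 367 ± 31.4 in ctr, with no call. Of the chaperones of the 19S base, Psmd5 averaged 424 ± 18.4 in aTX, 362 ± 28.6 in sTX and 291 ± 12.4 in ctr and was called in all 3 comparisons, 1.46-fold higher in aTX than in ctr and 1.24-fold higher in sTX than in ctr, although its call in aTX against sTX was lost with the wash run as a block (log2 0.17, adjusted p = 0.15). Psmd10 (gankyrin) averaged 306 ± 17.3 in aTX, 277 ± 21.0 in sTX and 278 ± 22.8 in ctr and was not called. With each array centred on its median, limma did call Psmg3, Psmg1 and Psmd10 higher in aTX than in sTX. Their log2 differences were 0.25, 0.24 and 0.26 (adjusted p = 0.023, 0.012 and 0.012). Psmg1 was then also called lower in sTX than in ctr (log2 −0.26, adjusted p = 0.012). The genes that share only the name were called higher in 1 comparison each. Psmc3ip, a factor of meiotic recombination, averaged 64.3 ± 8.92 in aTX, 71.4 ± 12.7 in sTX and 50.8 ± 12.7 in ctr and was called in sTX against ctr (1.42-fold higher, adjusted p = 0.038) and in neither other comparison. Psme3ip1, which binds Psme3, averaged 259 ± 16.3 in aTX, 224 ± 19.7 in sTX and 258 ± 20.2 in ctr and was called higher in aTX than in sTX (adjusted p = 0.034) and in neither other comparison. That call was lost with the wash run as a block (log2 0.23, adjusted p = 0.10), with quantile normalization (0.19, adjusted p = 0.053), and when aTX 2, 3 or 5 or sTX 1, 2 or 4 was left out (0.17 to 0.20, adjusted p = 0.064 to 0.099).

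Of 21 measured partners and regulators, 12 were higher and 5 lower in aTX than in ctr, 10 higher and 3 lower in aTX than in sTX, and 2 higher and 3 lower in sTX than in ctr. Over all named genes the shares higher were those given above (27.7%, 19.8% and 16.1%). The shares lower, taken over all probe sets and not per gene, were 22.2%, 22.1% and 6.32%. The share of partners lower in aTX, and the share higher in sTX, were thus close to or under the background. The share lower in sTX than in ctr was 3 of 21, and it was not ranked against a background that is not per gene. Over all probe sets, 1961 were lower there as deposited and 4724 with each array centred on its median. Among those higher in aTX was Pomp, the chaperone that matures the core, at 2048 ± 95.8 in aTX, 1285 ± 52.3 in sTX and 1267 ± 56.3 in ctr (log2 0.69 in aTX against ctr, adjusted p = 6.376e-09). Nub1, which delivers ubiquitin-like proteins to the cap, averaged 621 ± 54.4 in aTX, 175 ± 21.9 in sTX and 219 ± 19.2 in ctr, and it was higher in aTX and lower in sTX than in ctr (2.84-fold higher, and log2 −0.32). Usp14, a deubiquitinase of the cap, was higher in aTX than in ctr and in sTX than in ctr (log2 0.77 and 0.32). Among those lower were Nfe2l1, a transcription factor known to raise subunit genes of the constitutive proteasome when the proteasome is inhibited, and Ddi2, the protease that activates it. Nfe2l1 averaged 124 ± 20.6 in aTX, 140 ± 9.12 in sTX and 167 ± 17.3 in ctr (log2 −0.45 in aTX against ctr, adjusted p = 0.0019), and Ddi2 74.1 ± 4.55 in aTX, 105 ± 7.20 in sTX and 132 ± 17.5 in ctr (log2 −0.83, adjusted p = 3.006e-07).

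The genes of class I antigen processing beside the inducible subunits were all higher in aTX than in ctr (6 of 6) and than in sTX (6 of 6), and 4 of 6 were higher in sTX than in ctr. Over all named genes the shares higher were 27.7%, 19.8% and 16.1% in that order. Tap1, the neighbour of Psmb8 and Psmb9, averaged 1164 ± 78.7 in aTX, 98.8 ± 54.4 in sTX and 49.4 ± 10.99 in ctr. Its log2 difference was 4.58 in aTX against ctr and 0.89 in sTX against ctr, beside 4.62 and 1.10 for Psmb9. Of the interferon gamma axis, 6 of 6 measured genes were higher in aTX than in ctr and 3 of 6 higher in sTX than in ctr. These counts stand beside the same shares of all named genes, 27.7% and 16.1%. Ifng itself averaged 299 ± 57.5 in aTX, 7.58 ± 4.75 in sTX and 4.34 ± 2.87 in ctr and was not called in sTX against ctr (adjusted p = 0.16).

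The differences between sTX and ctr depended on how arrays were brought to a common scale and on the wash run, more than those between aTX and the other groups did. Centring each array on its median moved the median of all probe sets in sTX against ctr to −0.11 from 0.09 as deposited. It moved the share of higher probe sets among all probe sets called to 27.7% from 64.3% (54.0% with quantile normalization). In sTX against ctr, 5 proteasome genes were then higher (Psmb8, Psmb9, Psmb10, Psmd14 and Psmg3) and 7 lower, Psmb5 and Psmb7 among them. With the wash run as a block, in which sTX and ctr are tied only through the aTX arrays of both runs, 4 of the 16 calls were kept (Psmb3, Psmb10, Psme1 and Psmd5). Psmb10 was 2.32-fold higher in that fit (adjusted p = 0.019), and Psmb8 and Psmb9 were 2.03-fold (adjusted p = 0.27) and 2.52-fold (adjusted p = 0.10) higher. Median centring also moved the share of higher among all calls in aTX against sTX to 50.9% from 38.7%, with 41 proteasome genes then higher and 0 lower. In the fit with the run as a block 32 genes were called higher in aTX against ctr and 28 in aTX against sTX. Within run 1, Psmb8, Psmb9 and Psmb10 were 29.99-fold, 26.3-fold and 19.8-fold higher in aTX than in ctr, and within run 2 they were 14.8-fold, 10.4-fold and 8.55-fold higher in aTX than in sTX. The station was not taken into account in these values. The plain test of the study's methods, at an unadjusted p under 0.001, called 28 genes higher for aTX over ctr, 25 for aTX over sTX and 7 for sTX over ctr, beside 12.5%, 9.14% and 4.28% of all probe sets. Without sTX 4 and 5, 31 genes were higher in aTX than in sTX, and 13 were higher and 1 lower in sTX than in ctr.

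**Figure D4:**
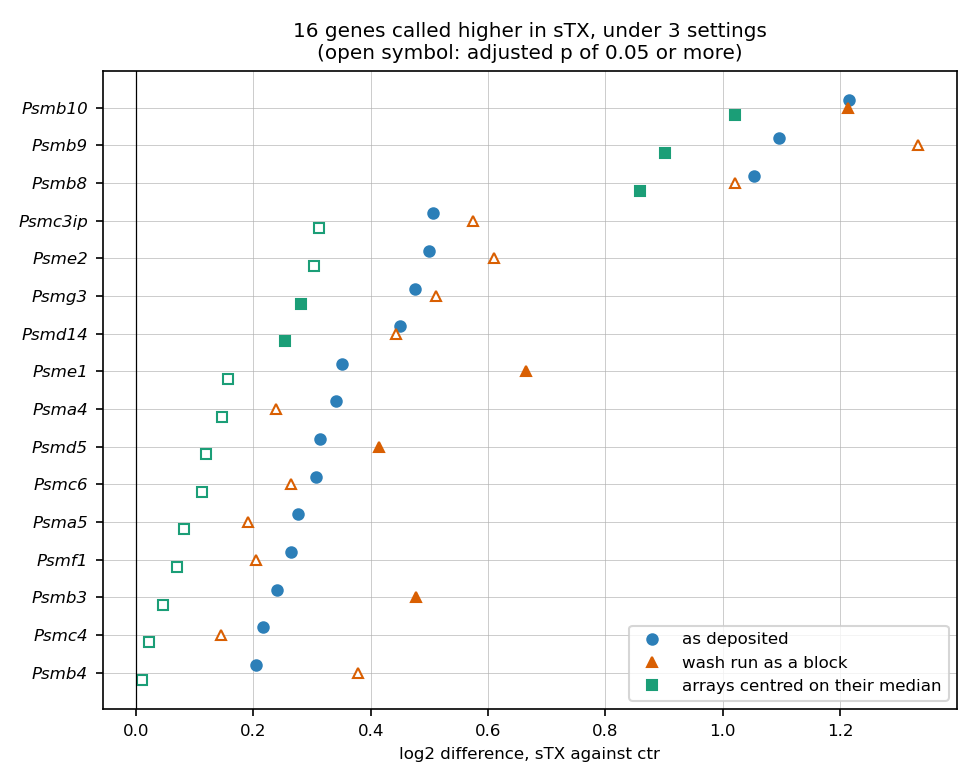
Log2 difference in sTX against ctr of the 16 genes called higher (rows), as deposited (circles), with the wash run as a block (triangles) and with each array centred on its median (squares), where open symbols have an adjusted p of 0.05 or more. Psmb10, at 1.22 as deposited, is filled under all 3 settings.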

How the data were processed

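RNA of 15 whole kidneys was measured on 1-colour Affymetrix Rat Genome 230 2.0 arrays. The authors condensed the probes with MAS5 and deposited linear signal intensities, which have a mean of 100 per array once 2% of probe sets are trimmed from each end. Depth does not apply to arrays, and 5 arrays per group limit the precision. Other deposited records, of unit other, are instrument logs, read only for the times that define the wash and stain runs and for stations. Of 31099 probe sets, 57 Affymetrix controls were left out, signals under 0.05 (54 values) were set to 0.05, and log2 signals of all 15 arrays were fitted with limma 3.58.1 (R 4.3.3, eBayes with an intensity trend, Benjamini-Hochberg over 31042 probe sets). The fit was tested on simulated data.

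The study's methods name a plain t-test at an unadjusted p under 0.001, tried as an alternative. Groups follow the sample titles. The members and lists were chosen with earlier results of these data known. The text names all catalytic, activator and inhibitor genes, in each other class the gene with the largest and the smallest difference in aTX against ctr, and the 3 largest calls in sTX against ctr. Psma4, Psmb3, Psmc6, Psmd2, Psmd3, Psmd6, Psmd7, Psmd11, Psmg2 and Psmg4 were named after their values were seen. Psmb9 minus Psmb6 was planned but not run, since no probe set carries Psmb6 alone. Some genes of the lists are not reported here.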

Additional observations from a re-analysis of the deposited data

Results flagged for a closer look

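Among 75 sets of 5 values (23 named genes and 2 within-array differences in 3 groups), 8 had an array far from the other 4 of its group by Dixon's gap test, which chance gives in about 1 set in 20. Array ctr 3 was high for Psmb8 (163.6, others 57.7 to 68.0), for Psmb9 (270.5, others 112.5 to 125.3) and for Psmb8 minus Psmb5 (−3.001, others −4.50 to −4.19). Array sTX 1 was high for Psmb8 (305.8, others 117.8 to 149.0) and for Psmb9 (589.4, others 207.5 to 311.7). Psma3 was high in sTX 3 (210.4, others 184.3 to 191.6). Psmg3 was high in aTX 2 (153.0, others 138.7 to 141.5) and in sTX 5 (156.7, others 121.2 to 130.1).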

How the results depend on the processing

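In aTX against ctr and aTX against sTX the counts of genes called higher stayed within 1.5 times, between 28 and 37 and between 25 and 41, and no gene was called lower under any setting. In sTX against ctr the 16 genes called higher became 5 with median centring, 7 with the methods' t-test at an unadjusted p under 0.001 and 4 with a wash run block, and the 0 called lower became 7 with median centring, 2 with only probe sets averaging 50 or more, and 1 without sTX 4 and 5 and with the mean of all probe sets of a gene. Leaving out each array in turn gave 14 to 16 higher and 0 to 1 lower there (1 without ctr 1, without ctr 5 and without sTX 5). The methods' t-test after Benjamini-Hochberg called 12 higher there, without Psmb8 (adjusted p = 0.11) and Psmb9 (adjusted p = 0.083). Psmb8 minus Psmb5 in sTX against ctr was 1.31 without sTX 4 and 5 (exact permutation adjusted p = 0.05357) and 0.87 to 1.35 when 1 array was left out. Psme1 in sTX against ctr turned to −0.16 (adjusted p = 0.71) with the mean of its probe sets, 1 of which is dim, and in aTX against ctr it was then not called (0.51, adjusted p = 0.10), while Psmb5 was called (0.92, adjusted p = 0.025), as it was in aTX against ctr with the methods' t-test after Benjamini-Hochberg (adjusted p = 0.034). Over the single genes named, 1654 values kept direction and side of the threshold, 64 lost and 29 gained a call and 1 reversed, and 796 class medians moved by less than the spread between arrays and 40 by more. The titles share replicate numbers, and 0 of 15 same-numbered pairs correlated above 0.1 in their deviations over all probe sets (r −0.02 to 0.03). Many of these probe sets are dim, so a low r cannot show that no donor was shared. With the replicate block 36, 32 and 15 genes were higher in aTX against ctr, aTX against sTX and sTX against ctr, and 1 lower (Psme3ip1 in sTX against ctr). Low signals, such as those of Psmb8 in ctr (mean 82.8, with array medians of 24.4 to 26.8), limit the precision of the largest folds. Causes of these dependencies were not tested.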
